A study of Mus musculus with 6 samples.

Results

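The stefin A genes form a cluster of closely related genes on mouse chromosome 16 that encode inhibitors of cysteine proteases. The 9 genes described here, Stfa1, Stfa2, Stfa2l1, Stfa3, Gm5483, 2010005H15Rik, BC100530, BC117090 and Gm5416, were taken by name from the 54532 genes of the count table. They were chosen by name as the members of the cluster with their lower counts in this same contrast already known, so their counts and fold changes are given as a description, without a test. RNA-seq was performed on CD8T cells from mouse spleen that were activated with anti-CD3/CD28 beads and then cultured for 24 hr together with macrophages. The macrophages were elicited in the peritoneum with thioglycolate and received 10 ng/mL IFN-γ for 12 hr before the coculture, in both groups. In the DB2313 group (3 samples) the macrophages were also treated with DB2313, which inhibits the transcription factor Spi1 and was used at 14 nM according to the methods, and in the control group (3 samples) they were not. The comparison addresses how CD8T cells differ in transcription after coculture with either kind of macrophage. GEO's labels name the cocultured cells DC, whereas the paper names macrophages, and the sources do not differ on which samples had DB2313. Neither gives mouse strain or age for these cells or says whether the samples came from separate cultures, so the p-values below measure only the spread between these samples.

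Stefins, also called type 1 cystatins, are small proteins without a signal peptide that stay inside the cell. They bind tightly and reversibly in the active site cleft of papain-like proteases such as the cathepsins B, H, L and S, and so hold in check proteases that leak from lysosomes. Where humans have the gene CSTA, the mouse carries a cluster of stefin A copies, several of which are known from neutrophils, other myeloid cells and skin.

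In the control group, the 9 genes together had 1899, 1959 and 1785 counts in the 3 libraries. In the DB2313 group, they had 79, 74 and 46 counts. The sum was therefore low in every DB2313 library and high in every control library, and the groups were far apart. After TMM scaling, this was 109.4 ± 4.38 CPM (counts scaled to the library size) among the controls and 3.71 ± 1.04 CPM among the DB2313 samples (SD, n = 3 each), a log2 fold change of -4.89 (standard error 0.10) or 29.6-fold lower. The stefin A counts took 0.0102% to 0.0110% of a control library. In the DB2313 group, they took between 0.000259% and 0.000446%.

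The libraries held 16611975 to 18596217 counts each, and 14883 genes passed edgeR's filter on low counts. Replicates differed by more than sampling noise (chi-square per gene from 2.47 to 3.96 within the groups and from 51.3 to 56.0 between them), so each library was counted as its own sample. All 14 T cell markers of the list used here were counted in each library, and Cd8a was at 118.5 ± 3.91 CPM with control and 171.5 ± 10.2 CPM with DB2313-treated macrophages (SD, n = 3 each). Genes of macrophages and neutrophils were also counted in each library, and with no CD8T cells grown on their own among the samples used here, the stefin A counts cannot be assigned to the T cells or to other cells. In RNA of mixed cells, fewer cells of a type and less RNA per cell cannot be told apart.

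The cluster spans 298.6 kb on chromosome 16 of GRCm38, chr16:36156811-36455392, and all 9 genes are annotated as protein-coding. In their order along the chromosome, Stfa2l1, Gm5483, Gm5416, 2010005H15Rik and Stfa1 lie on the plus strand. BC117090, BC100530, Stfa2 and Stfa3 follow on the minus strand, so the 5 plus-strand genes face the 4 minus-strand genes. In 8 of the 9 genes, an annotated snRNA gene lies 60 to 134 bases beyond the 3′ end on the opposite strand, and each of these snRNA genes had 0 counts. The snRNA gene nearest to Stfa3 lies 11791 bases away. This repeated arrangement of a stefin gene with an snRNA gene behind it is what tandem copies share, and it was not used to choose the genes.

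The encoded proteins, read as the longest open frame of the annotated transcripts, have 96 to 128 residues. Each of the 9 contains the motif Gln-x-Val-x-Gly once, the loop with which cystatins enter the protease cleft. Over the 36 pairs of proteins, the identity of aligned residues ranged from 61.9% to 96.9%, with a median of 70.0%. The closest pair was Gm5483 with 2010005H15Rik, which are identical at 94 of 97 residues. Stfa2l1 and Stfa2 are identical at 98 of 103 residues, and Stfa1 and BC100530 at 92 of 97. BC117090 is closest to BC100530, with 90 of 96 residues. Of these 4 pairs, only BC117090 and BC100530 are next to each other on the chromosome.

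**Figure D1:**
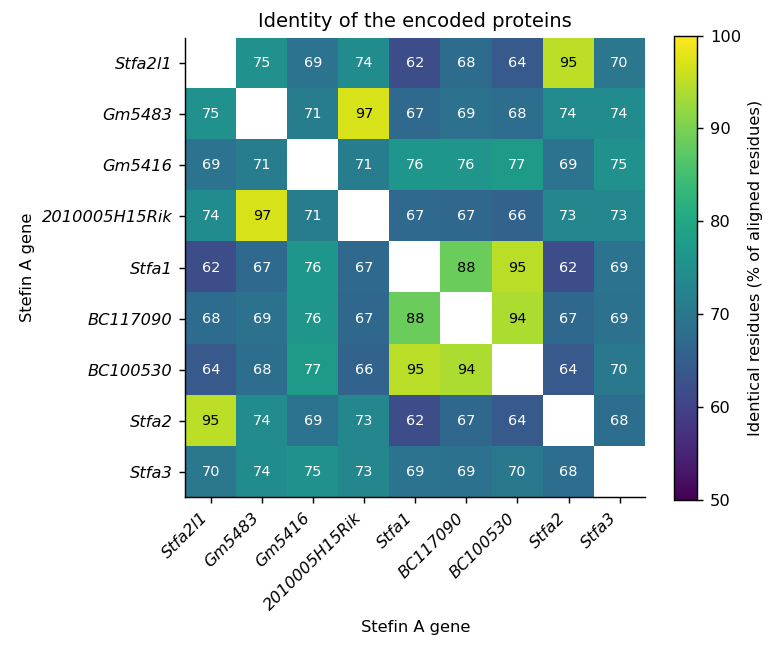
Identity of the encoded proteins for each pair of the 9 stefin A genes, in percent of aligned residues, with the genes in their order along the chromosome on both axes. Most pairs lie near the median of 70.0%, and the brightest cells are Gm5483 with 2010005H15Rik (96.9%), Stfa2l1 with Stfa2 (95.1%) and Stfa1 with BC100530 (94.8%).

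Because the copies are alike, reads can be shared among them, and the transcripts were compared in windows of 50 bases. In BC100530, 36.2% of the windows were found letter for letter in a transcript of another gene. In BC117090, this share was 33.7%, in Stfa2l1 24.6%, in Stfa1 22.5%, in 2010005H15Rik 20.4%, in Stfa2 15.9% and in Gm5483 14.2%. Stfa3 and Gm5416 shared no window with any other gene, so their counts are the least open to such sharing. All shared windows of 2010005H15Rik were shared with Gm5483. With windows of 100 bases, a length chosen after seeing the data, the highest share was 15.6%, in BC100530. Windows were matched on either strand, and some shared windows lie in genes that are not among the 9 members. With windows of 100 bases, the gene that shared most with BC100530 was Gm15845 (6.08%), which lies inside the cluster on the opposite strand. Of the 50-base windows of Gm5483, 7.10% were shared with another member. The same share was 23.8% in BC100530, 16.8% in Stfa2l1 and 14.7% in Stfa2, below their shares with any gene. The sum over the cluster does not depend on how reads are divided among the members, but it can still hold or lack reads that are shared with these other genes. How reads that fit several copies were counted is uncertain. The sum can therefore also lack reads shared among the members, or hold them more than once. BC100530 also overlaps the antisense gene Gm15845 over 679 bases, and 2010005H15Rik overlaps the pseudogene Gm10813 over 94 bases. These overlaps were taken between the start and end of each gene, introns included. Gm15845 had 2 counts over all libraries and Gm10813 had 0. Whether the counting used the strand is not given in the sources used here, so reads from either strand in these overlaps cannot be told apart.

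The sequences before the transcription starts are shown because the genes moved together in this contrast. RefSeq windows of GRCm38.p6, from 250 bases before to 50 bases after each annotated start, were matched for 8 of the 9 genes by gene ID. BC117090 had no entry. RefSeq calls Gm5483 Cstdc4, Gm5416 Csta3, 2010005H15Rik Csta2 and BC100530 Cstdc5. The longest run of letters found in all windows but 1 was ACCTTTAAAACCC, which 7 of the 8 windows hold and which lies in 9 of the 32851 RefSeq windows of that length in all (0.0274%). The other 2 of these 9 windows belong to Cstdc3 and Gm7260. A few bases before it, the run AGAGGAGGAG stands in 6 of the 8 windows, against 1.03% of all windows. All of these runs were picked from these same windows. The second was the longest run shared by all but 1 of the stretches of 40 bases before the first. The search therefore fixed how many of the 8 windows hold each run. The shares among all windows are given as a description, and enrichment was not tested. The capitals mark these runs in the following stretches, each written 5′ to 3′ on the strand of its gene.
Stfa2l1, chr16:36156736-36156817, plus strand: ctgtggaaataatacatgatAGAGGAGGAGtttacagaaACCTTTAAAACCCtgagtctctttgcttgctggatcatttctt
Gm5483, chr16:36184141-36184222, plus strand: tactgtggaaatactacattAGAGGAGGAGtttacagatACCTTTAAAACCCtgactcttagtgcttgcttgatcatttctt
Gm5416, chr16:36210278-36210365, plus strand: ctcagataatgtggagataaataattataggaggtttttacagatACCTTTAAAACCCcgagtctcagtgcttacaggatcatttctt
Stfa1, chr16:36277076-36277157, plus strand: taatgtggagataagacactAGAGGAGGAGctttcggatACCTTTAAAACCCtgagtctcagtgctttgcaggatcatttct
Stfa2, chr16:36408353-36408434, minus strand: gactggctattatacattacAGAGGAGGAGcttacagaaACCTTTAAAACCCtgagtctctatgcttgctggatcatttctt
Stfa3, chr16:36455384-36455466, minus strand: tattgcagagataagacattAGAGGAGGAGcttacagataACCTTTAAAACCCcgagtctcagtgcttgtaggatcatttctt

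In Stfa2l1, Gm5483, Stfa1, Stfa2 and Stfa3, the run ACCTTTAAAACCC ends 19 to 23 bases before the RefSeq start. In Gm5416 it ends 67 bases before the start, and in BC100530 it reaches the start itself. The runs are 9 bases apart in 5 of the 6 windows that hold both, and 10 bases apart in Stfa3. The window of 2010005H15Rik holds none of these runs, although its protein is the closest to that of Gm5483 and although it was among the most abundant members. Gm5416, which has the first run but not AGAGGAGGAG, was nearly without counts in both groups. Of the motifs searched on both strands by their letters alone, GAGGAA, the core bound by ETS factors such as Spi1, was in 6 of the 8 windows and in 28.3% of all windows. These 6 windows are those that hold AGAGGAGGAG, and no match overlaps that run. The longer GAGGAAGT, which contains it, was in none of the 8 and in 3.20% of all. TTGCNNAA, a core of C/EBP sites, was in the windows of Gm5416, Stfa1 and BC100530 and in 10.8% of all, and TATAAA was in none of the 8 and in 13.6% of all. These are matches of letters, and none was tested as a site.

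Gm5483 (ENSMUSG00000079597, chr16:36184212-36188111) held the most counts of the cluster. It had 776, 740 and 687 counts in the control libraries and 22, 21 and 13 in the DB2313 libraries. The 3 libraries of each group lay close together and the groups did not overlap. Its level was 42.7 ± 0.615 CPM among the controls and 1.04 ± 0.292 CPM with DB2313 (SD, n = 3 each), and the log2 fold change was -5.35 (standard error 0.13). This corresponds to 40.8-fold lower with DB2313.

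2010005H15Rik (ENSMUSG00000095620, chr16:36221468-36257444), the closest copy of Gm5483, had 300, 396 and 381 counts in the control libraries and 22, 11 and 16 in the DB2313 libraries. Control replicate 1 was lower than the other 2 control libraries, and still far above each DB2313 library. The level was 20.98 ± 3.77 CPM among the controls and 0.902 ± 0.275 CPM with DB2313 (SD, n = 3 each), with a log2 fold change of -4.52 (standard error 0.20) or 22.9-fold lower.

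Stfa2l1 (ENSMUSG00000059657, chr16:36156811-36161953) and Stfa2 (ENSMUSG00000022902, chr16:36403992-36408457) lie near opposite ends of the cluster and encode nearly the same protein. Stfa2l1 had 164, 172 and 155 counts in the control libraries and 8, 11 and 6 in the DB2313 libraries. Stfa2 had 159, 171 and 154 counts in the control libraries and 10, 0 and 5 in the DB2313 libraries. The control libraries gave both genes almost equal counts, and in both the groups did not overlap. In the DB2313 group Stfa2 was at 0 in replicate 2, the replicate in which Stfa2l1 was highest. Stfa2l1 was at 9.52 ± 0.462 and 0.468 ± 0.162 CPM (SD, n = 3 each), a log2 fold change of -4.34 (standard error 0.24). Stfa2 was at 9.39 ± 0.569 and 0.271 ± 0.271 CPM (SD, n = 3 each), a log2 fold change of -5.04 (standard error 0.33), which was -5.99 without DB2313 replicate 1. The counts with DB2313 were thus few enough for 1 library to set the size of the difference in Stfa2.

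BC100530 (ENSMUSG00000071561, chr16:36359382-36367748) had 302, 280 and 244 counts in the control libraries and 15, 19 and 6 in the DB2313 libraries. Its level was 15.98 ± 0.955 and 0.751 ± 0.397 CPM (SD, n = 3 each), with a log2 fold change of -4.42 (standard error 0.21). The groups did not overlap, and DB2313 replicate 3 was the lowest library, as it was for the sum.

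Stfa1 (ENSMUSG00000071562, chr16:36276951-36285373), the namesake of the family and the closest copy of BC100530, was much less abundant. It had 41, 47 and 31 counts in the control libraries and 2, 7 and 0 in the DB2313 libraries. Its level was 2.30 ± 0.421 and 0.173 ± 0.213 CPM (SD, n = 3 each). The log2 fold change of -3.73 (standard error 0.53) was the smallest of the cluster over all 6 libraries, and the groups did not overlap. Without DB2313 replicate 2 it was -5.23 and without DB2313 replicate 3 it was -3.14, so the size of this difference depended on single libraries.

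Stfa3 (ENSMUSG00000054905, chr16:36450537-36455392), the last gene of the cluster, had 151, 151 and 132 counts in the control libraries. In the DB2313 libraries it had 0, 5 and 0 counts. All its counts with DB2313 came from replicate 2, and the control libraries were close to each other. The level was 8.41 ± 0.363 and 0.0977 ± 0.169 CPM (SD, n = 3 each), and the log2 fold change of -6.40 (standard error 0.40) or 84.2-fold lower was the largest of the cluster over all 6 libraries, although it was -5.83 without DB2313 replicate 1, where Stfa2 was at -5.99. Without replicate 2 the DB2313 group had no count. With the 3 counts that a count of 0 allows over the other 2 libraries (0.0814 CPM), these libraries were at least 103-fold below the control mean. This bound leaves out DB2313 replicate 2, which was at 0.293 CPM. It therefore does not hold for the whole group, where Stfa3 was 84.2-fold lower. Of the abundant members, Stfa3 is the gene whose transcript shared no window with another gene.

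Gm5416 (ENSMUSG00000094733, chr16:36210403-36217788) had 4, 1 and 1 counts in the control libraries and 0 in each DB2313 library. BC117090 (ENSMUSG00000079594, chr16:36321665-36334332) had 2, 1 and 0 counts in the control libraries and 0 in each DB2313 library. Both were near or under the 3 counts that a count of 0 allows in a library, or 1.81e-05% of the smallest library, so no fold is given and a difference was not detectable at this depth. Neither passed the filter on low counts.

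**Figure D2:**
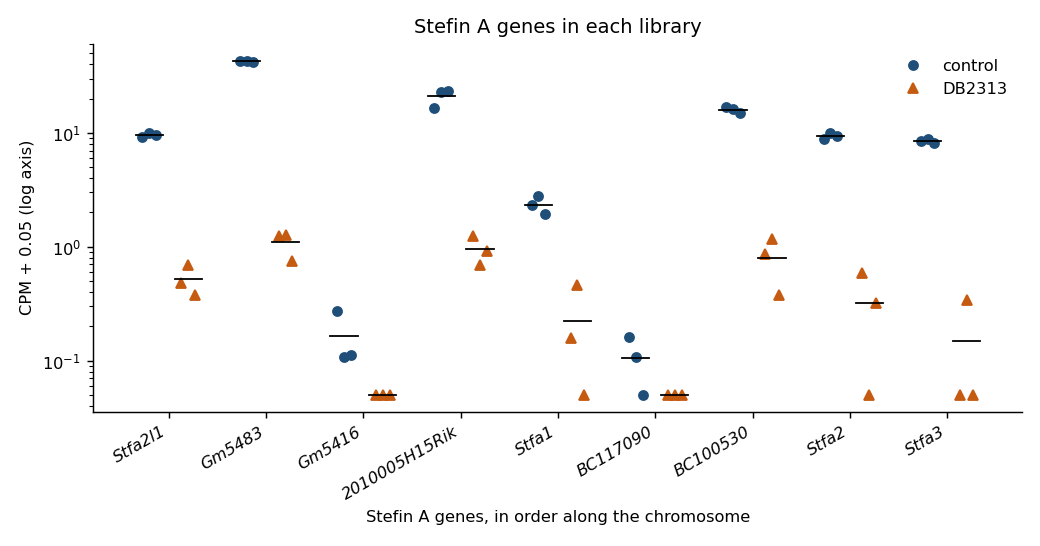
CPM plus 0.05 of each stefin A gene in each library on a log axis, with circles for the 3 control libraries, triangles for the 3 DB2313 libraries and a line at each group mean. In the 7 tested genes each control point lies above each DB2313 point, from Gm5483 at 42.7 against 1.04 CPM to Stfa1 at 2.30 against 0.173 CPM, and Gm5416 and BC117090, with at most 4 counts in a library, lie near the floor of the axis.

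Of the 9 genes, 7 passed the filter on low counts and 2 did not. All 7 were past an adjusted p of 0.05 with a log2 fold change below -1 by edgeR, as were 5.30% of all tested genes, and in all 7 the groups did not overlap with the control group above, as in 27.5% of all tested genes. Since the genes were chosen on this contrast, and since they passed the filter through their control counts, nothing is read from these counts. The median log2 fold change of the 7 was -4.52, with a range from -6.40 to -3.73, against a median of 0.019 over all tested genes. Outside the cluster, 18 of the tested genes had a log2 fold change below that of Stfa1, and 6 had one below that of the sum.

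Among themselves, the members differed less in level per length than in counts. Per kb of the gene length given in the deposited table, 6 of them had levels from 19.9 to 32.8 CPM per kb in the control group. 2010005H15Rik had the highest of these levels, at 32.8 ± 5.90 CPM per kb (SD, n = 3). Gm5483 followed at 22.9 ± 0.330, Stfa2l1 at 22.7 ± 1.10, Stfa3 at 20.4 ± 0.880, BC100530 at 20.2 ± 1.21 and Stfa2 at 19.9 ± 1.21 CPM per kb (SD, n = 3 each). Of these neighbours in order, those from Gm5483 to Stfa2l1 and from Stfa3 to Stfa2 lay within each other's SD. Stfa1 was lower, at 3.24 ± 0.593 CPM per kb (SD, n = 3), and Gm5416 and BC117090 were at 0.387 ± 0.318 and 0.146 ± 0.143 CPM per kb. In the DB2313 group, the levels per length ranged from 0.237 CPM per kb in Stfa3 to 1.41 CPM per kb in 2010005H15Rik among the 7 genes with counts there.

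The division of the summed counts among the members was steady over the control libraries. Gm5483 took 39.0% ± 1.62, 2010005H15Rik 19.1% ± 2.93 and BC100530 14.6% ± 1.15 of the stefin A counts (SD, n = 3 each), which makes 72.8% for these 3 genes. In the DB2313 group, Gm5483 took 28.2% ± 0.279, with 27.9%, 28.4% and 28.3% in the 3 libraries, all below the 37.8% to 40.9% of the control libraries. Stfa2l1 took 10.1% to 14.9% in the DB2313 libraries, all above the 8.64% to 8.78% of the control libraries. Stfa3 took 0 to 6.76% in the DB2313 libraries, all below the 7.39% to 7.95% of the control libraries. For 2010005H15Rik, BC100530, Stfa1 and Stfa2 the shares of the groups overlapped, for example 14.9% to 34.8% with DB2313 against 15.8% to 21.3% in 2010005H15Rik. Each DB2313 library had at most 79 stefin A counts, and no member had over 22 in it, so the shares there rest on few counts.

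The genes around the cluster were set beside it, within 500 kb of its outermost members. Of the 60 other genes there, 18 passed the filter on low counts. By the adjusted p of edgeR's quasi-likelihood test and a log2 fold change beyond 1, 0 were lower and 0 higher, against 5.30% and 1.37% of all tested genes. DESeq2 called none either, and at an unadjusted p under 0.05 edgeR gave 5 lower and 4 higher. Their median log2 fold change was -0.11, with a range from -1.11 to 0.46, so each neighbour was closer to no change than any of the 7 tested stefin A genes. Inside the cluster lie 20 further annotated genes, of which 17 had 0 counts in all libraries, and the highest had 6 counts in all. Csta1, a further stefin A gene that begins 25.6 kb before the cluster, had 0 counts in each library.

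The tested genes that flank the cluster were Ccdc58 and Fam162a on the side of Stfa2l1, and Cd86 and Ildr1 on the side of Stfa3. Ccdc58 was at 13.7 ± 1.40 and 13.4 ± 1.54 CPM and Fam162a at 31.8 ± 2.42 and 34.2 ± 2.24 CPM without and with DB2313 (SD, n = 3 each). Their log2 fold changes were -0.029 (standard error 0.11, adjusted p = 0.859) and 0.11 (standard error 0.08, adjusted p = 0.264), the first of which turned above 0 under library size or upper quartile scaling and on leaving out control replicate 2 or 3 or DB2313 replicate 2. Cd86, a costimulatory ligand of antigen-presenting cells, was at 182.5 ± 4.15 and 116.7 ± 2.84 CPM (SD, n = 3 each), with a log2 fold change of -0.64 (standard error 0.04, adjusted p = 1.02e-12) that was not beyond 1. For Ildr1 the log2 fold change came to -0.95 (standard error 0.30, adjusted p = 0.0129), which passed -1 without control replicate 1 (-1.11) and without DB2313 replicate 3 (-1.23).

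**Figure D3:**
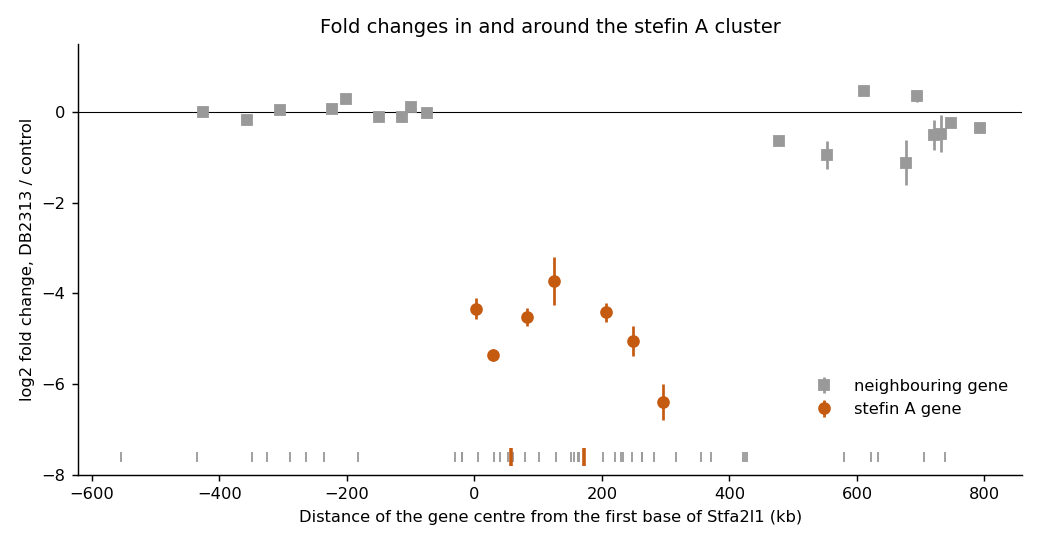
log2 fold change (DB2313 against control, points with 1 standard error) against the distance in kb of each gene's centre from the first base of Stfa2l1, with stefin A genes as circles, neighbouring genes as squares and untested genes as ticks at the bottom. The 7 stefin A genes lie between -6.40 and -3.73, and the 18 neighbours between -1.11 and 0.46.

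Other cystatins were followed as a list of 21 names, of which 18 are in the table and 12 were at 0 in all libraries. Only 3 passed the filter, and 1 of them, Cst3, was called lower. Cst3 encodes cystatin C, the secreted inhibitor of cysteine proteases, and had 42075, 41677 and 41901 counts in the control libraries and 16627, 14818 and 14816 in the DB2313 libraries. The groups did not overlap, and the log2 fold change came to -1.51 (standard error 0.04, adjusted p = 2.18e-19). Cstb encodes stefin B, the other intracellular stefin, and had 3879, 3886 and 3664 counts against 2227, 1897 and 1924. Its log2 fold change of -0.98 (standard error 0.04, adjusted p = 7.37e-15) just missed the threshold of -1, which it passed without control replicate 1 or without DB2313 replicate 1. Cst7 encodes cystatin F, the cystatin of cytotoxic lymphocytes and myeloid cells, and had 552, 524 and 489 counts against 627, 495 and 542. These groups overlapped, and the log2 fold change came to 0.024 (standard error 0.08, adjusted p = 0.824), which turned below 0 without DB2313 replicate 1. Of the 3, Cst3 had the log2 fold change nearest to the -4.89 of the stefin A sum.

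Cysteine cathepsins and legumain, among them targets of stefins and of other cystatins, were followed as a list. Legumain is not among the stefin targets named above. Of the 11 genes of this list, all tested, 2 fell past the thresholds and 0 rose, and the median log2 fold change was -0.64. Ctsc, which encodes the dipeptidase that activates granule serine proteases, was at 792.0 ± 11.1 and 357.6 ± 6.49 CPM (SD, n = 3 each), a log2 fold change of -1.15 (standard error 0.03, adjusted p = 8.51e-19). Lgmn, which encodes legumain, was at 244.5 ± 3.95 and 94.6 ± 3.80 CPM (SD, n = 3 each), a log2 fold change of -1.37 (standard error 0.04, adjusted p = 1.14e-18). Among the abundant genes not beyond the fold threshold, the log2 fold change was -0.81 in Ctss, -0.64 in Ctsb, -0.64 in Ctsz and -0.93 in Ctsh, the first, second and last of which encode cathepsins that stefin A proteins inhibit. Ctsl, which encodes cathepsin L, was at 0.027 (standard error 0.03, adjusted p = 0.540) and Ctsw, which encodes a cathepsin of cytotoxic lymphocytes, at 0.52 (standard error 0.04, adjusted p = 3e-10). At the adjusted p alone, and equally at an unadjusted p under 0.05, 6 of the 11 were lower and 2 higher by edgeR, DESeq2 called 0 higher, and no gene of the list was at a log2 fold change below that of any tested stefin A gene.

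Transcription factors of granulocyte and monocyte development were followed as a list of 8 genes, of which 1 was called lower and 0 higher by edgeR and DESeq2 alike, with a median log2 fold change of -0.50. At an unadjusted p under 0.05, edgeR gave 6 lower and 2 higher. Irf8, which encodes a factor of monocyte and dendritic cell development, was the called gene, at 333.2 ± 4.81 and 157.6 ± 2.996 CPM (SD, n = 3 each) and a log2 fold change of -1.08 (standard error 0.03, adjusted p = 1.10e-17). With library size scaling it was at -0.99 and no longer beyond 1. Spi1, the factor that DB2313 inhibits, had 5026, 4983 and 4756 counts in the control libraries and 2941, 2715 and 2731 in the DB2313 libraries. Its groups did not overlap, and its log2 fold change of -0.88 (standard error 0.04, adjusted p = 2.58e-15) was not beyond 1. The log2 fold change was -0.19 in Cebpb, 0.15 in Cebpa and 0.60 in Gfi1, none of them beyond 1 (adjusted p between 4.81e-06 and 0.0151 from the same edgeR test).

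Markers of the cell types that could be in the culture moved as well, and their values are given beside the stefin A genes. Of 15 neutrophil markers, 12 were lower and 1, Retnlg, was higher by edgeR but not by DESeq2, with a median log2 fold change of -1.72. None of the 15 was at 0 in all libraries, and their summed level went from 2429 to 2465 CPM in the control libraries to between 804.1 and 824.6 CPM in the DB2313 libraries. S100a9, the most abundant, which encodes a calcium-binding protein of the neutrophil cytosol, was at 513.6 ± 4.98 and 156.3 ± 7.80 CPM (SD, n = 3 each), a log2 fold change of -1.72 (standard error 0.04, adjusted p = 1.14e-20). The lowest log2 fold change of the list was -3.92, in Ly6g, a surface marker of mature neutrophils that lies between the values of Stfa1 and Stfa2l1. In each library the stefin A sum was also set against the summed neutrophil markers. It was 4.33%, 4.66% and 4.42% of their CPM in the control libraries and 0.519%, 0.531% and 0.311% in the DB2313 libraries. The ratio was thus lower with DB2313 too. The stefin A genes were chosen with their lower counts known, and the abundant markers weigh most in the marker sum. The ratio is therefore given as a description, and what it reflects was not tested.

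Of the 5 primary granule genes, which neutrophil precursors express, 1 was called higher and 0 lower. Their median log2 fold change was 0.94 and their summed level was 495.8 to 518.9 CPM against 961.2 to 981.1 CPM. Mpo, which encodes myeloperoxidase, was the most abundant, with a log2 fold change of 0.95 (standard error 0.04, adjusted p = 5.16e-16). All 5 were higher at an adjusted p of 0.05 alone, and 0 were lower at an unadjusted p under 0.05 or with DESeq2. The medians of these 5 genes and of the neutrophil markers thus had opposite signs, and the 7 tested stefin A genes had the sign of the neutrophil marker median.

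Of 13 macrophage markers, 7 were lower and 0 higher, with a median of -1.21, and 1 was higher at an unadjusted p under 0.05 and 0 with DESeq2. Their summed level was 10210 to 10500 CPM against 3274 to 3404 CPM, and Lyz2, which encodes lysozyme, fell by 1.89 on the log2 scale (standard error 0.03, adjusted p = 1.70e-23). The stefin A sum was 1.06% ± 0.0481 of the CPM of this list among the controls and 0.110% ± 0.0294 with DB2313 (SD, n = 3 each). Of 8 dendritic cell markers, 3 were lower, and 1 was higher at the adjusted p alone, with a median of -0.48 and a summed level of 1114 to 1127 CPM against 936.2 to 963.9 CPM. Ccr7, the most abundant of them, was at -0.10 (standard error 0.03, adjusted p = 0.00790). Of 9 tested mast cell and basophil markers, 3 were lower and 0 higher past the fold threshold. At the adjusted p alone 4 were higher, among them Prss34 (0.39) and Mcpt8 (0.52). The list had a median of 0.10 and a summed level of 1226 to 1243 CPM against 1000 to 1028 CPM. Cpa3, a mast cell carboxypeptidase, was at -1.30 (standard error 0.03, adjusted p = 2.18e-19). The lowest log2 fold change of the list was -5.40 (standard error 0.11), in Tpsb2, between the values of Stfa3 and Gm5483. Of 5 eosinophil markers, 1 was lower, with a median of -0.53 and a summed level of 83.6 to 86.9 CPM against 49.1 to 54.6 CPM, and Prg2, which encodes major basic protein, was at -0.68 (standard error 0.07, adjusted p = 2.83e-08). The neutrophil, macrophage, eosinophil and dendritic cell lists thus had medians below 0, each nearer to 0 than that of the stefin A genes, while the medians of the primary granule list and of the mast cell and basophil list were above 0.

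Of 14 T cell markers, 0 passed the fold threshold in either direction with edgeR or DESeq2, while all 14 were higher at an adjusted p of 0.05 alone, with log2 fold changes from 0.32 to 0.74 and a median of 0.61. Their summed level was 2381 to 2395 CPM against 3623 to 3658 CPM, and Lck, a kinase of T cell receptor signalling, was at 0.64 (standard error 0.03, adjusted p = 1.13e-13). Of 5 B cell markers, 0 were called by either tool and 4 were higher at an unadjusted p under 0.05, with a median of 0.46 and 39.1 to 44.5 CPM against 55.8 to 58.3 CPM, and Cd79b was at 0.46 (standard error 0.09, adjusted p = 0.000294). Stefin A genes are also known from skin, and of 6 keratinocyte markers 3, Krt5, Krt14 and Dsg3, were at 0 in all libraries. The list had a summed level of 1.39 to 1.86 CPM against 2.01 to 2.38 CPM. Krt10, the only one tested, was at 0.44 (standard error 0.29, adjusted p = 0.225), and 0 were called or had an unadjusted p under 0.05 by edgeR, and 0 by DESeq2. The part of these cell types in the stefin A difference was not tested.

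**Figure D4:**
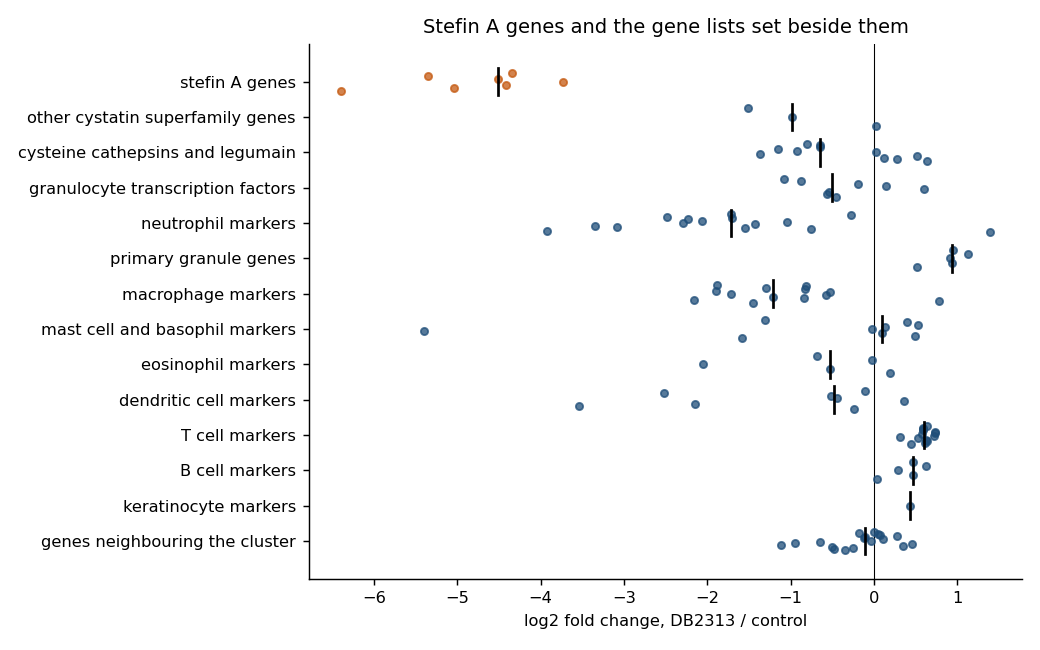
log2 fold change (DB2313 against control) of each tested gene, with the stefin A genes in the top line, the gene lists below and a black bar at each median. The stefin A genes have a median of -4.52, and the medians of the lists lie between -1.72 in the neutrophil markers and 0.94 in the primary granule genes.

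The genes whose pattern over the 6 libraries was most like the stefin A sum were found among 9331 protein-coding genes with at least 10 CPM in the control group, by the distance between log2(CPM + 1) values after each gene's mean was subtracted. They were Fndc5 (distance 0.474), Tpsb2 (0.480), Gbp2b (1.08), Plet1 (1.11) and Dmpk (1.74). Pearson's r with the sum was between 0.988 and 0.9998 over the 6 libraries, which fall into the 2 groups, so these values mostly reflect the difference between the groups and are given as a description. Fndc5, which encodes the precursor of irisin, was at 36.5 ± 1.01 and 0.798 ± 0.0822 CPM, a log2 fold change of -5.50. Tpsb2, which encodes a mast cell tryptase and is in the mast cell and basophil list above, was at 108.5 ± 5.46 and 2.57 ± 0.797 CPM. These were nearly the levels of the stefin A sum in both groups. The log2 fold change was -3.89 in Gbp2b, an interferon-induced GTPase gene, -4.18 in Plet1 and -3.66 in Dmpk, which encodes a muscle protein kinase.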

How the data were processed

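Total RNA of CD8T cells from 3 control and 3 DB2313 cocultures was sequenced. The authors deposited raw counts per gene without normalization, with gene coordinates and lengths. GEO's processing notes name CASAVA 1.8, HISAT2 2.0.5 and featureCounts 1.5.0-p3, whereas the paper's methods name LifeScope, so the aligner, and how reads that fit several copies were counted, are uncertain. Genome build, annotation and strandedness are not given in the sources used here. Of 54409 genes shared with GENCODE mouse release M21, 53499 (98.33%) had its GRCm38 coordinates, among them all 9 members. Columns were matched to samples by label, and none was left without a sample.

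The counts were then tested gene by gene in R 4.3.3 with edgeR 4.0.16 (filterByExpr with a minimum count of 10, TMM, glmQLFit and glmQLFTest) over all 6 libraries without covariates. Genes were called where the Benjamini-Hochberg adjusted p was below 0.05 and the log2 fold change was beyond 1 in either direction. All p-values printed here come from this test. Standard errors were derived from the fitted change and its F statistic, and the common biological coefficient of variation was 4.67%. CPM were scaled by TMM. For the sum, the 9 members were replaced by 1 summed gene. Libraries held 16611975 to 18596217 counts. Where a gene had 0 counts, up to 3 are allowed by chance, a limit that covers counting error only because the reads carry no molecular identifiers.

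The members and the lists (other cystatins, cathepsins and legumain, granulocyte transcription factors, neutrophil, primary granule, macrophage, mast cell and basophil, eosinophil, dendritic cell, T cell, B cell and keratinocyte markers, and genes within 500 kb) were chosen with earlier results of these data known. Named were all members, called genes of the first 3 lists and up to 4 further abundant ones in each, called and flanking neighbours, the most abundant gene of each marker list, and the 5 genes most like the sum. Ly6g, Retnlg, Cd8a, Ctsl, Ctsw, Prss34, Mcpt8, Csta1, Krt5, Krt14 and Dsg3 were named after their values were seen. Protein and window comparisons used GENCODE M21 transcripts with Biopython 1.88 in Python 3.11.15, and promoters came from RefSeq (GRCm38.p6).

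On simulated counts with 200 changed genes, edgeR called 197 of them among 14848 genes and DESeq2 1.42.0 called 197 among 24555, with 0 unchanged genes called by either. The changed genes were drawn from the better-counted ones, and all genes were given the same spread. The planted changes were smaller than those of the tested members, so the simulation does not cover changes as large as theirs. The alternatives tried were DESeq2, scaling by library size or upper quartile, no filter on low counts, a filter of at least 10 counts in each sample, a replicate block, the adjusted p alone, scaling to the T cell markers, members without overlapping genes, a pseudocount of 0.1 in place of 1, and leaving out each library.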

Additional observations from a re-analysis of the deposited data

How the results depend on the processing

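In all 79 alternative fits of single members the log2 fold change was below 0, and the sum ranged from -5.01 (without DB2313 replicate 1) to -4.66 (without DB2313 replicate 3) with 1 library left out. It was -5.15 over the members that overlap no other gene and -5.50 with scaling to the T cell markers. With at least 10 counts in every sample, 2 members were called lower, since only 2 were tested there. The number of other cystatins called lower was 2 with the adjusted p alone and from 1 to 2 with 1 library left out. The adjusted p alone, which drops the fold threshold, gave 6 lower and 2 higher cathepsins, 6 lower and 2 higher transcription factors, 4 lower and 3 higher neighbours, and 29 higher cell type markers. With library size scaling 0 transcription factors were lower. With 1 library left out, from 0 to 2 neighbours were lower, 1 without control replicate 1 and 2 without DB2313 replicate 3. Higher cell type markers numbered 2 in the fit reported, 5 with library size and 4 with upper quartile scaling, 1 with DESeq2, with no filter and with at least 10 counts, and from 1 to 2 with 1 library left out (1 on leaving out DB2313 replicate 1 or control replicate 1 or 2). Apart from what the construction of an alternative shows, the cause was not tested. The log2 fold change of Cst7 was -0.052 without DB2313 replicate 1. That of Ccdc58 was 0.066 with library size and 0.035 with upper quartile scaling, from -0.11 (without control replicate 1) to 0.059 with 1 library left out, among these 0.00029 without control replicate 2, 0.030 without control replicate 3 and the highest without DB2313 replicate 2. Of 495 comparisons of 39 single genes, the 7 tested members among them, 6 changed direction, 22 became stronger and 1 weaker against the thresholds. Another 2 kept direction and side of the threshold but moved in size. These were Stfa1 (-5.23) and Stfa3 (-10.2) without DB2313 replicate 2. The other 464 kept direction and side of the threshold.

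Control and DB2313 samples share replicate numbers, but the correlation of their deviations from the group means was 0.0138, -0.00389 and 0.0187 for the same number, so the numbers were not taken to pair the samples. With the replicate block, 7 members were called lower and the sum was at -4.89, and it moved no other count. The member values in the DB2313 group rest on at most 22 counts in a library.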
